A study of Homo sapiens with 12 samples.

Results

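The aldo-keto reductases examined here were AKR1A1, AKR1B1, AKR1C1, AKR1C2, AKR1C3, AKR1C4 and AKR7A2, 7 genes chosen by symbol and looked up in the platform's probe table, where 18852 genes have a probe of a single symbol. The table held 10 probes for 5 of these genes: 1 for AKR1C1, 5 for AKR1C2, 1 for AKR1C3, 2 for AKR1C4 and 1 for AKR7A2. AKR1A1 and AKR1B1 had no probe there and were not analysed here. AKR1C3 had drawn attention through its rise with givinostat against control, so for all members the changes of givinostat and of the combination against control are given as a description with no test.

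HDLM-2, a human line established from Hodgkin lymphoma, was measured with the HumanHT-12 V3 bead array of Illumina. The 4 groups of 3 arrays were untreated control cells, cells given 100 nM givinostat, cells given 5 µM sorafenib, and cells given both drugs at those concentrations, all for 24 hours in the same culture medium. Givinostat inhibits histone deacetylases, and sorafenib inhibits RAF and receptor tyrosine kinases. Whether arrays A, B and C of a group came from separate cultures is not given in the labels, so p-values measure the spread between arrays only, and the results hold for a single cell line.

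Aldo-keto reductases use NADPH to reduce aldehydes and ketones to alcohols. The AKR1C enzymes are best known for steroids and prostaglandins: AKR1C1 inactivates progesterone, AKR1C2 inactivates dihydrotestosterone, AKR1C3 makes testosterone from androstenedione and prostaglandin F from prostaglandin D, and AKR1C4 is a mainly hepatic enzyme of bile acid and steroid metabolism. AKR1A1 and AKR1B1 are the aldehyde and aldose reductases, the latter making sorbitol from glucose, and AKR7A2 reduces succinic semialdehyde and the dialdehyde of aflatoxin. Several AKR1C genes are known targets of the oxidant-responsive factor NRF2 in human cells. The AKR1C genes are close copies, and probes may read more than 1 of them.

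Nearness of sequence also holds before the genes, and the promoters are shown for that reason: AKR1C1 and AKR1C2, whose probes stayed at background, and AKR1C3 and AKR1C4, whose probes did not, lie side by side on chromosome 10 with related start regions. The windows run from 250 bases before to 50 bases after the start site and come from RefSeq on GRCh38.p14. They lie at chr10:4963165-4963464 on the plus strand for AKR1C1, chr10:5003808-5004107 on the minus strand for AKR1C2, chr10:5048531-5048830 and chr10:5094164-5094463 on the plus strand for the 2 listed starts of AKR1C3, and chr10:5196587-5196886 on the plus strand for AKR1C4. Each is written 5′ to 3′ on the strand of its gene, and capitals mark matches to CCAAT or TATAAA on either strand.
AKR1C1: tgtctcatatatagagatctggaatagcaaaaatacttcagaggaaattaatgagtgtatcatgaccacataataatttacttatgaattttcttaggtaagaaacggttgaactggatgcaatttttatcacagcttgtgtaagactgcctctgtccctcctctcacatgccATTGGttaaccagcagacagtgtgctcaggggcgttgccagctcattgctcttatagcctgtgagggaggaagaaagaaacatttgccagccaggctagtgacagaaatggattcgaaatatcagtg
AKR1C2: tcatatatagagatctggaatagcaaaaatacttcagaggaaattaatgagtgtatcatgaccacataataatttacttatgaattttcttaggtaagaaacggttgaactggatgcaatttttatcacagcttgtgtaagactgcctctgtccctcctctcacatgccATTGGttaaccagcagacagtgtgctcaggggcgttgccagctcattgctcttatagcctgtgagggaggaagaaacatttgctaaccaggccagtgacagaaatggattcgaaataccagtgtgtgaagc
AKR1C3 (start 1): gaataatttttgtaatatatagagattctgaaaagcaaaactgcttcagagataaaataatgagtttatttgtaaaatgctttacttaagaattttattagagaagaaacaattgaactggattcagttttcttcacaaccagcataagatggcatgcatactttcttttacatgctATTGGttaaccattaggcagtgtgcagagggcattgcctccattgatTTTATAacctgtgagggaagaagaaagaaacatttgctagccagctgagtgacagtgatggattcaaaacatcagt
AKR1C3 (start 2): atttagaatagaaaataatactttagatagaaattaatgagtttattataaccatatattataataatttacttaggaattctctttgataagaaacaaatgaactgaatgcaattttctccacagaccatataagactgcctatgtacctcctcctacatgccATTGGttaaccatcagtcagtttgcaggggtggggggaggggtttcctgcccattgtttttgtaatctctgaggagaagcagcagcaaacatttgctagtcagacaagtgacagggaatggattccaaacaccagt
AKR1C4: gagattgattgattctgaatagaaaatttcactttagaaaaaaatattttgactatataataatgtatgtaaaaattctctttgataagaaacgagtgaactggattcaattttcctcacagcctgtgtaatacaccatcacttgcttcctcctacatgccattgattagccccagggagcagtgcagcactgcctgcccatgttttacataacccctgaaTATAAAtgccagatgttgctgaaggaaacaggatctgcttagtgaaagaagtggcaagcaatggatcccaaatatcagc

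In a global alignment AKR1C1 and AKR1C2 shared 288 of 300 bases (96%). AKR1C3 start 1 matched AKR1C1 at 77.7% of the 300 bases, AKR1C3 start 2 at 75.7%, and AKR1C4 at 70.7%. The 2 starts of AKR1C3 matched each other at 75.7%. Over aligned bases alone, the starts of AKR1C3 matched each other at 83.2% and AKR1C1 at 80.9% and 80.2%. A CCAAT match on the minus strand, read ATTGG, stood at position -77 in AKR1C1, -81 in AKR1C2, and -73 and -86 in the 2 AKR1C3 windows, and AKR1C4 had none in its window. TATAAA was matched at -26 on the minus strand in AKR1C3 start 1 and at -29 on the plus strand in AKR1C4. Of 35114 promoter windows of this length 34.6% held CCAAT and 11.5% held TATAAA, so such matches are common.

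The AKR1C windows were poor in CpG, the dinucleotide at which vertebrate DNA is methylated. Both AKR1C3 windows held 0 CpG, AKR1C4 held 1, and AKR1C1 and AKR1C2 held 3 each, against a median of 14 over the 35114 windows, of which 24.5% held 3 or fewer and 3.96% held 0. Their GC content ran from 33.7% (AKR1C3 start 1) to 41.3% (AKR1C2), against a mean of 57.5%. AKR7A2, at chr1:19312097-19312396 on the minus strand, is shown as the contrast within the family, with capitals for the antioxidant response element core TGACNNNGC, the sequence NRF2 binds, and for the GC box GGGCGG.
AKR7A2 (start 1): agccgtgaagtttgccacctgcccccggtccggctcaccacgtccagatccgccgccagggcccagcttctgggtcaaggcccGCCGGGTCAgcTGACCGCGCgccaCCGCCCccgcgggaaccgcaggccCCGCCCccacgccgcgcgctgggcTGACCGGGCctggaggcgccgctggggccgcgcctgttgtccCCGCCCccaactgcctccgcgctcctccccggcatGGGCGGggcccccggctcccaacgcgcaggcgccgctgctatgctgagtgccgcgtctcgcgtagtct

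That window had 77% GC and 39 CpG, 4 GC boxes, and 3 matches to the antioxidant response element core, at -167 on the minus strand and at -156 and -95 on the plus strand. Searched on both strands, 13.3% of the windows held the core, 45.0% the GC box and 7.71% the AP-1 element TGANTCA, whose letters can overlap the core. None of the AKR1C windows printed above matched the core, the AP-1 element or the GC box, which says only that these letters are not in these 300 bases. The second listed start of AKR7A2 lay 2 bases away and held the same numbers of matches. The AKR7A2 window matched the AKR1C windows at 47.7% to 51% of bases.

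Of the 10 probes, 4 were detected, meaning that in at least 1 group all 3 arrays had a detection p under 0.05: the probes of AKR1C3 and AKR7A2 and both of AKR1C4. The AKR1C1 probe and the 5 AKR1C2 probes were not. Their 72 values on 12 arrays included 0 above background, the smallest detection p was 0.148, and intensities ran from 141.9 to 239.4. On the normalized log2 scale they lay between 4.93 and 5.77, under the lowest level called above background on any array (6.10 to 6.37). The AKR1C1 probe averaged 167.5 units in control, 170.8 with givinostat, 158.2 with sorafenib and 172 with the combination. The group means of the 5 AKR1C2 probes ran from 152.5 (probe 5, sorafenib) to 208 (probe 1, givinostat). Neither gene can be given a direction between treatments from values at background. Levels are compared between groups for 1 probe at a time, since probes differ in how brightly they read.

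AKR1C3 was at background without givinostat and well above it with givinostat. Its probe (ILMN_1713124) read 195.8, 203.8 and 194.9 intensity units on control arrays A, B and C, and 176.0, 195.5 and 174.0 on the sorafenib arrays, with 0 of these 6 arrays above background. It read 504.2, 653.4 and 508.5 with givinostat and 496.6, 577.3 and 470.1 with both drugs, above background on 6 of 6 arrays. No givinostat-treated array overlapped an array without givinostat, and the share of all probes with such a separation was not counted.

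**Figure D1:**
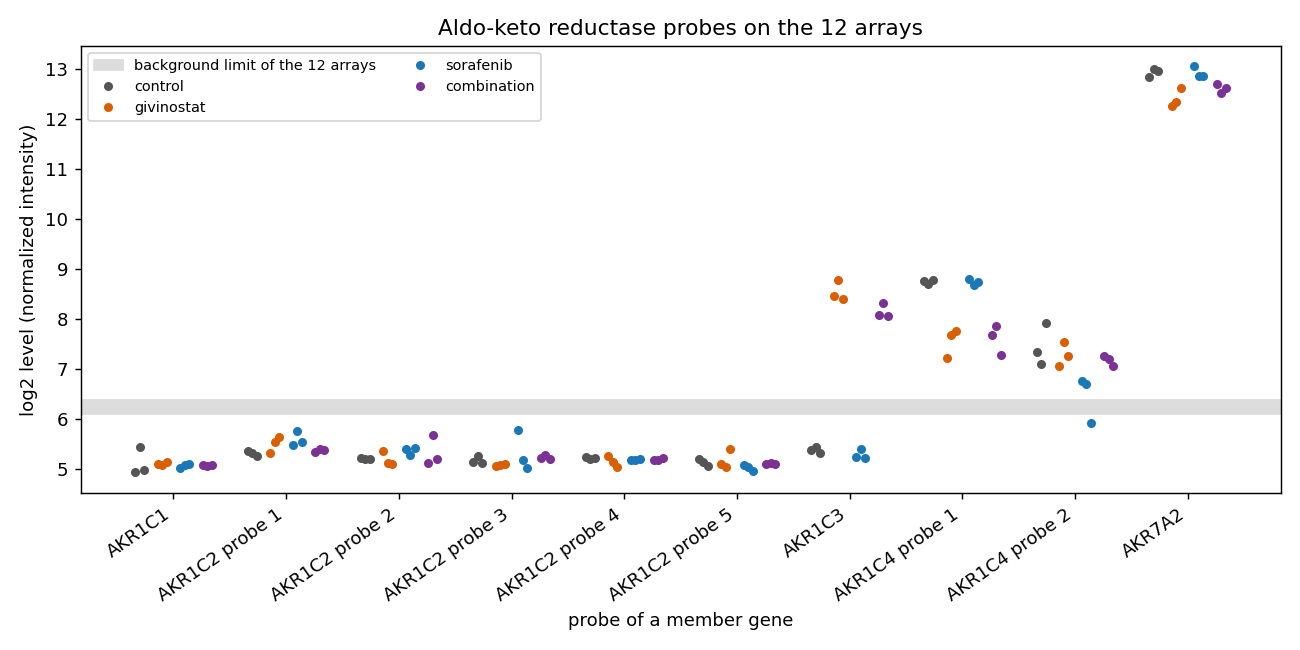
Normalized log2 level of each of the 10 member probes, with 1 point for each array coloured by group; the grey band spans the background limits of the 12 arrays. The AKR1C3 arrays lie between 5.21 and 5.43 without givinostat and between 8.05 and 8.78 with it, the AKR1C1 and AKR1C2 probes stay under the band, AKR1C4 probe 1 is lower with givinostat, and AKR1C4 probe 2 is lowest with sorafenib.

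After normalization the AKR1C3 level was 5.38 ± 0.05 (SD, n = 3) in control, 8.54 ± 0.21 with givinostat, 5.28 ± 0.11 with sorafenib and 8.15 ± 0.15 with the combination, in log2 units. The order was givinostat, combination, control, sorafenib, and the last pair overlapped array by array. Givinostat against control, the contrast that singled the gene out, gave a difference of 3.17 (SE 0.12), at least 4.92-fold against the background limit. For scale, 184 of 48803 probes (0.377%) were above background on 3 of 3 givinostat arrays and 0 of 3 control arrays. In this fit 29.0% of detected probes differed at an adjusted p under 0.05 in that contrast. The combination against control gave 2.78, at least 3.75-fold, where 36.7% of probes differed. Without background correction these differences were 1.51 and 1.26, and the bounds given as "at least" hold for the corrected values only.

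The comparison of the combination with sorafenib sets side by side 2 groups other than those through which AKR1C3 was chosen, although normalization and the estimate of the spread are shared over all 12 arrays. It asks what givinostat added in cells that also received the kinase inhibitor. AKR1C3 passed the detection filter only through the givinostat and combination groups, so this comparison is not independent of that filter. AKR1C3 was higher with the combination by 2.87 (SE 0.12, 95% interval 2.61 to 3.14, adjusted p = 1.27e-07), at least 3.75-fold. With only these 2 groups in the fit the difference was the same and the adjusted p was 7.23e-05. All 3 combination arrays exceeded all 3 sorafenib arrays, as they also did at AKR1C2 probe 5, a probe at background. In the same comparison 246 of the 48803 probes (0.504%) went from 0 of 3 to 3 of 3 arrays above background, AKR1C3 among them, and 80 of these had done so with givinostat against control as well. The size of the difference depended on the background correction, without which it was 1.33, and the call did not: the adjusted p was no higher than that value in 20 alternatives.

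The authors' processed intensities, which were quantile normalized without background subtraction, averaged 198.1 ± 4.75 (SD, n = 3) in control, 565.2 ± 56.9 with givinostat, 188.9 ± 10 with sorafenib and 474.6 ± 30.6 with the combination for AKR1C3. They show the same split of the arrays on a scale compressed by the background that remains in them.

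Sorafenib alone moved AKR1C3 by -0.09 (SE 0.12, 95% interval -0.36 to 0.17, adjusted p = 0.714), with all 6 arrays at background, so no fold is given. With givinostat present, the normalized AKR1C3 level was lower with sorafenib, the highest combination array (8.32) lying under the lowest givinostat array (8.39). Before normalization these arrays overlapped, combination B reading 577.3 units against 504.2 and 508.5 on givinostat A and C. AKR1C2 probe 3, at background, did not overlap between these groups either, and the share over all probes was not counted. The AKR1C3 difference of -0.39 (SE 0.12, 95% interval -0.66 to -0.13) had an unadjusted p of 0.00735 and an adjusted p of 0.143, and did not pass. Non-additivity, tested as the interaction of the drugs, was -0.30 (SE 0.17, adjusted p = 0.578).

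AKR1C4, the hepatic member, was read by 2 probes annotated to the same gene, and they did not move together in the combination against sorafenib. Probe 1 (ILMN_1668880) fell with givinostat added to sorafenib, with a difference of -1.14 (SE 0.16, 95% interval -1.49 to -0.78, adjusted p = 0.000358). Probe 2 (ILMN_1687757) rose in that comparison, by 0.72 (SE 0.24, 95% interval 0.19 to 1.25, adjusted p = 0.0417), a call lost in 12 of 19 alternatives. Against control both probes were lower with givinostat (-1.20 and -0.17, SE 0.16 and 0.24) and with the combination (-1.15 and -0.28), values given without a test. As the probes differed in size, and against sorafenib in sign, a direction for AKR1C4 as a gene can not be given.

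AKR1C4 probe 1 was above background on all 12 arrays. It read 642.9, 680.9 and 650.2 units in control and 606.4, 544.5 and 467.0 with sorafenib, against 323.3, 407.2 and 400.6 with givinostat and 423.8, 474.8 and 356.7 with both drugs. In log2 units the group means were 8.74 ± 0.04 (SD, n = 3) in control, 7.55 ± 0.29 with givinostat, 8.73 ± 0.07 with sorafenib and 7.60 ± 0.30 with the combination. On this scale the groups with and without givinostat did not overlap, while control and sorafenib overlapped, as did givinostat and combination. Before normalization combination B (474.8) exceeded sorafenib C (467.0). How many of all probes separate in this way was not counted.

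Against control, givinostat differed by -1.20 (SE 0.16) and the combination by -1.15 at AKR1C4 probe 1. Sorafenib alone moved this probe by -0.01 (95% interval -0.36 to 0.34, adjusted p = 0.982). The combination differed from givinostat by 0.05 (95% interval -0.30 to 0.40, adjusted p = 0.916), and the interaction was 0.06 (adjusted p = 0.953). The fall against sorafenib held its call in 21 of 21 alternatives, at -1.26 to -0.68.

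AKR1C4 probe 2 was dimmer and varied more. It read 354.4, 346.6 and 443.0 units in control, 309.0, 387.8 and 338.0 with givinostat, 281.4, 273.1 and 216.2 with sorafenib, and 366.8, 376.4 and 333.1 with both drugs. In log2 units the means were 7.45 ± 0.42 (SD, n = 3) in control, 7.28 ± 0.24 with givinostat, 6.45 ± 0.47 with sorafenib and 7.17 ± 0.10 with the combination. Sorafenib array C, at a detection p of 0.142, was its only array not above background. The sorafenib arrays were lower than those of every other group, and the other 3 groups overlapped.

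Its fall with sorafenib alone was -1.0 (SE 0.24, 95% interval -1.53 to -0.47, adjusted p = 0.049), the seventeenth-lowest difference (rank 17) of 16927. Without sorafenib array C the difference was -0.73 (adjusted p = 0.111), and the call was lost in 15 of 19 alternatives, among them the removal of any single array but sorafenib A. The rise with the combination against sorafenib fell to 0.45 (adjusted p = 0.144) without sorafenib array C, and its call was lost in 12 of 19 alternatives, including without control A, givinostat C or any combination array. Givinostat against control gave -0.17 (SE 0.24), and the combination against givinostat -0.12 (adjusted p = 0.868). The interaction was 0.89 (SE 0.34, unadjusted p = 0.0241, adjusted p = 0.406).

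AKR7A2, the succinic semialdehyde and aflatoxin aldehyde reductase, was bright in every group and somewhat lower with givinostat. Its probe (ILMN_1677043) read 8211.3, 10812.4 and 8888.3 units in control, 4522.4, 5746.8 and 5959.8 with givinostat, 8384.9, 6983.5 and 5185.2 with sorafenib and 7026.3, 6566.1 and 6190.3 with both drugs, before normalization between arrays. In normalized log2 units the means were 12.93 ± 0.08 (SD, n = 3), 12.40 ± 0.18, 12.92 ± 0.11 and 12.61 ± 0.08 in that order. Givinostat and control did not overlap, nor did the combination and sorafenib, whereas control and sorafenib did. Absence of overlap between groups of 3 arrays says little alone, here and for the other members, and its share over all probes was not counted. Probes at background showed it too: AKR1C2 probe 3 for givinostat and control and for the combination and givinostat, and AKR1C2 probes 1 and 5 for the combination and sorafenib.

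A pseudogene, AKR7A2P1, has probes of its own on the array, and cross-reading between it and AKR7A2 was not tested.

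The AKR7A2 difference was -0.52 (SE 0.11) for givinostat and -0.32 for the combination against control, or -0.70 and -0.51 with median scaling. The combination against sorafenib gave -0.31 (SE 0.11, 95% interval -0.56 to -0.07), with an adjusted p of 0.0497 just inside the threshold, and the call was lost in 15 of 21 alternatives, at adjusted p up to 0.194. These included the removal of any array but givinostat C. Sorafenib alone gave -0.00 (95% interval -0.24 to 0.24, adjusted p = 0.994), the combination against givinostat 0.20 (adjusted p = 0.394) and the interaction 0.21 (adjusted p = 0.678).

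**Figure D2:**
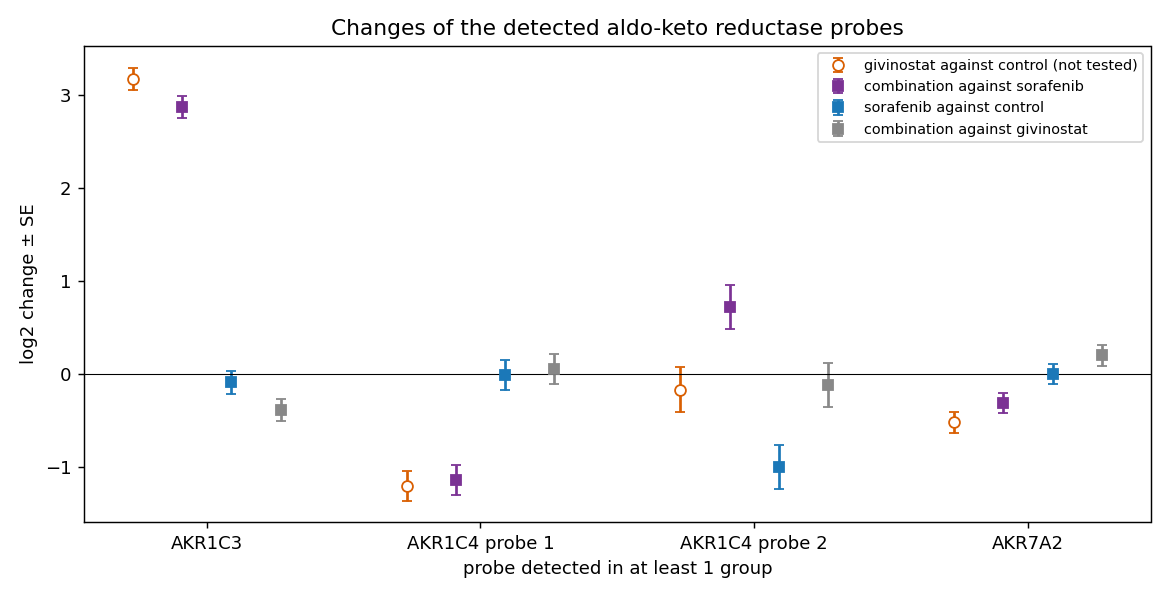
Log2 change of each detected member probe in 4 contrasts, with bars of 1 SE from the fit; open circles are givinostat against control, which was not tested, and squares are the tested contrasts. AKR1C3 stands at 2.87 in combination against sorafenib, AKR1C4 probe 1 at -1.14, AKR1C4 probe 2 at 0.72 and AKR7A2 at -0.31.

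Counted over the 4 detected probes, 4 differed between the combination and sorafenib, 2 higher (AKR1C3 and AKR1C4 probe 2) and 2 lower (AKR1C4 probe 1 and AKR7A2), where 30.5% of all detected probes differed, 15.4% higher and 15.1% lower. With each array scaled to its median instead, 2871 probes were higher and 1260 lower in that comparison, against 2602 and 2554. AKR1C3 and AKR1C4 probe 1 kept their calls in all alternatives that tested them, and the other 2 did not. With sorafenib against control 1 of 4 differed (AKR1C4 probe 2), against 2.99% of all detected probes, 1.93% higher and 1.06% lower (326 and 180 probes, or 106 and 436 with median scaling). Between the combination and givinostat 0 of 4 passed limma's test, with 1.21% of all probes passing. There 1 of 4, AKR1C3, had an unadjusted p under 0.05, as did 2746 of all 16927 detected probes. In the interaction 0 of 4 passed, with 0.0118% of all probes passing. Here 1 of 4, AKR1C4 probe 2, had an unadjusted p under 0.05, as did 1729 of the 16927. AKR1C3 had to pass the detection filter through the groups where it is high, so counts over detected probes lean towards probes that differ.

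Of the 4 detected genes around the AKR1C genes on chromosome 10, 1 differed between the combination and sorafenib, a share near the 30.5% of all detected probes. In RefSeq gene order the genes with a probe run KLF6, LINC02639, LINC00702, AKR1E2, AKR1C6P, AKR1C1, AKR1C2, AKR1C3, AKR1C4, UCN3, TUBAL3, NET1, CALML5, CALML3-AS1, CALML3, ASB13, TASOR2 and GDI2. Beside AKR1C3 and AKR1C4, the detected probes were those of KLF6, NET1 (2 of 3 probes), ASB13 and GDI2. ASB13, a substrate adaptor of ubiquitin ligases, was 0.91 higher with the combination than with sorafenib (SE 0.14, adjusted p = 0.000537), with means of 8.72 in control, 9.74 with givinostat, 9.11 with sorafenib and 10.02 with the combination. KLF6, a zinc finger transcription factor, gave -0.02 (adjusted p = 0.95), the NET1 probes 0.13 and 0.03 (adjusted p = 0.33 and 0.884), and GDI2, a regulator of Rab proteins, 0.25 (adjusted p = 0.0951). AKR1E2 and the pseudogene AKR1C6P, next to AKR1C1, were above background on 0 of 12 arrays.

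**Figure D3:**
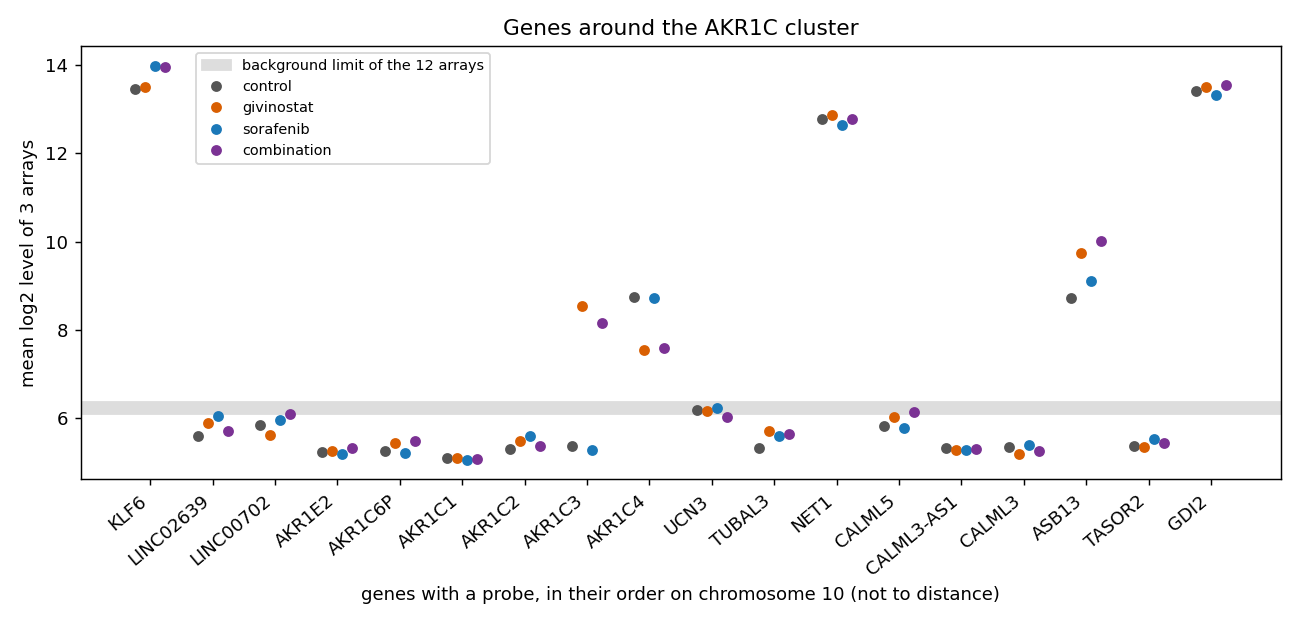
Mean normalized log2 level of 3 arrays in each group for genes in their order on chromosome 10 around AKR1C1 to AKR1C4, each by its probe of the highest mean; the horizontal axis is gene order, not distance, and the grey band spans the background limits. AKR1C3 stands above the band in givinostat (8.54) and combination (8.15) and under it in control (5.38) and sorafenib (5.28), between AKR1C2, under the band in all groups, and AKR1C4, above it in all groups.

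Of 12 other genes of the superfamily, 9 had a probe and 4 were tested by the probe with the highest mean. AKR7A3, the closest relative of AKR7A2, fell by 0.37 with the combination against sorafenib (SE 0.12, adjusted p = 0.0373), a call lost in 10 of 21 alternatives. AKR1B15, a relative of aldose reductase, fell by 0.67 with sorafenib against control (SE 0.13, adjusted p = 0.0196), from 9.11 to 8.44, a call lost in 4 of 21 alternatives. AKR1D1, the steroid reductase of bile acid synthesis, gave 0.30 with the combination against sorafenib (adjusted p = 0.0602), and KCNAB2, a potassium channel subunit with the aldo-keto reductase fold, -0.57 (SE 0.27, adjusted p = 0.137). A dimmer KCNAB2 probe also gave -0.57 and passed (SE 0.15, adjusted p = 0.0138). AKR1B10, a retinal reductase related to aldose reductase, was above background on 0 of 12 arrays. AKR1D1 and AKR7A3 each had a second probe that was above background on 0 of 12 arrays beside one above it on 12 of 12, so probes of 1 gene disagreed there too.

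Markers checked the label of the cells. Of 8 Reed-Sternberg cell markers 7 were detected, CD70 being the exception. With the combination against sorafenib 1 of these 7 rose and 4 fell, with a median of -0.44. Over all tested genes 16.7% rose and 16.2% fell in that comparison, with a median of -0.01. TNFRSF8, which encodes CD30, averaged 8.34, 7.19, 7.96 and 6.93 in control, givinostat, sorafenib and combination, and ID2, a transcription inhibitor, 14.25, 14.89, 14.51 and 14.83. Of 4 hepatocyte markers, included because AKR1C4 is a liver enzyme, 0 were detected, as were 0 of 2 erythroid markers with a probe. CD2 was the 1 of 6 T cell markers detected, MS4A1 the 1 of 5 B cell markers, and CD68 and CSF1R 2 of 5 myeloid markers. CD2 was bright, with group means of 13.61 to 14 and all 12 arrays above background. MS4A1 lay near background, with group means of 6.43 to 6.63 and 10 of 12 arrays above it. Mean intensity ran from 1034 units (sorafenib C) to 1630 (control B), and 16382 (sorafenib C) to 17934 probes (combination A) were above background. Sorafenib C also had the lowest correlation with its own group, 0.987, the highest being 0.993, and its part in the AKR1C4 probe 2 values beyond those given without it was not tested.

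The next genes are those whose products share substrates, cofactor or control with the aldo-keto reductases, counted for the combination against sorafenib. As the base for reading each list, 1763 (16.7%) of 10529 genes rose and 1703 (16.2%) fell, with a median of -0.01. NRF2, encoded by NFE2L2, is the activator of antioxidant genes, and KEAP1 marks it for breakdown. Of 16 tested NRF2 target genes 1 rose and 2 fell, with a median of 0.03: HMOX1, which degrades haem, rose by 0.75 (SE 0.12, adjusted p = 0.000626), while GSR, which regenerates glutathione, fell by 0.93 (adjusted p = 0.000316) and PGD of the pentose phosphate pathway fell by 0.53 (adjusted p = 0.00239).

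Of 6 NRF2 pathway regulators 0 rose and 1 fell, with a median of -0.02. KEAP1 fell by 0.88 (SE 0.12, adjusted p = 0.000247), from 11.82 with sorafenib to 10.93 with the combination. With sorafenib against control, where 219 genes rose (2.08%) and 116 fell (1.10%), 0 of the 16 targets passed limma's test. An unadjusted p under 0.05 was found for 5 of the 16, and for 3350 of all 16927 detected probes. In this comparison MAFF, a small partner of NRF2, fell by 0.84 (SE 0.19, adjusted p = 0.0369), a call lost in 10 of 21 alternatives.

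**Figure D4:**
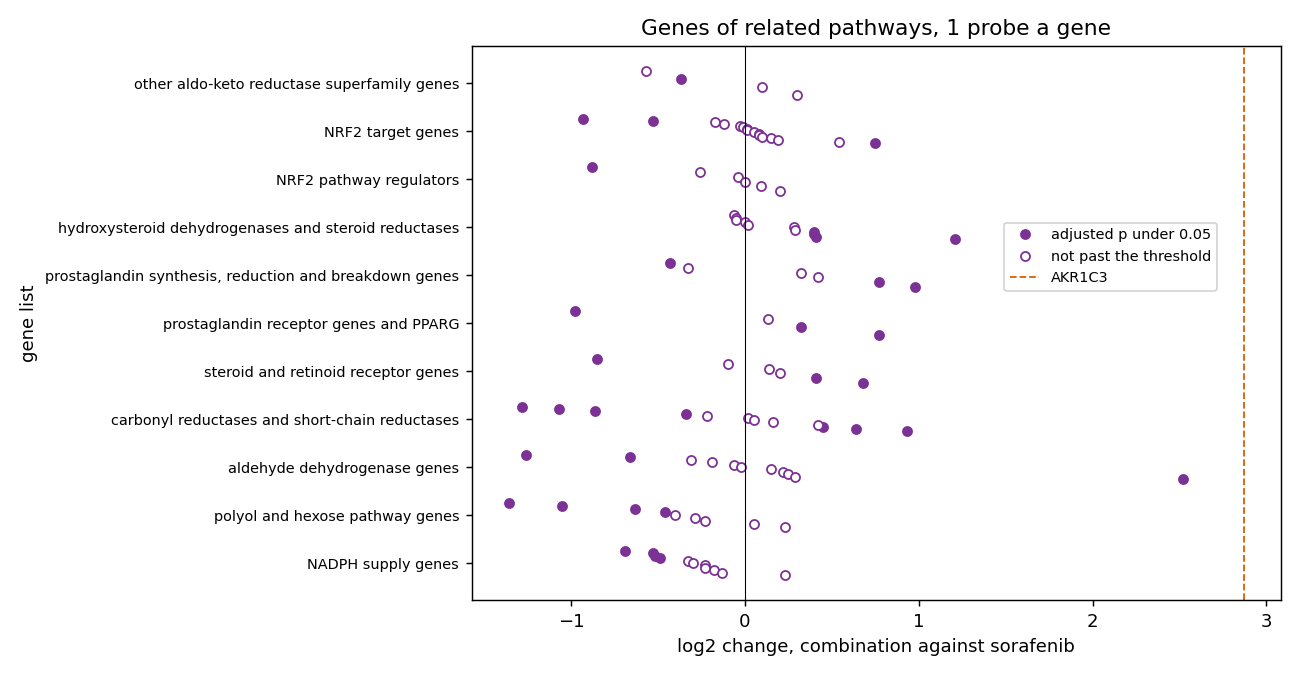
Log2 change of each tested gene in combination against sorafenib, 1 point a gene and 1 line of points a gene list; filled points had an adjusted p under 0.05, open points did not, and the dashed line marks AKR1C3. Among the genes of these lists ALDH1A1, at 2.52, lies nearest to the AKR1C3 value of 2.87. Both sizes rest on mean sorafenib levels at or near background, 6.03 for ALDH1A1 and 5.28 for AKR1C3.

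Other enzymes of steroid metabolism were read next. Of 11 tested hydroxysteroid dehydrogenases and steroid reductases 4 rose and 0 fell, with a median of 0.28. HSD17B8 rose by 1.21 (SE 0.10, adjusted p = 7.13e-06), with means of 9.74 in control, 11.11 with givinostat, 9.98 with sorafenib and 11.19 with the combination. HSD17B4 and HSD17B11 each rose by 0.40 (adjusted p = 0.00687 and 0.00551), and HSD11B1L by 0.41 (adjusted p = 0.0381), the last a call lost in 6 of 21 alternatives. HSD17B4 is known as a peroxisomal enzyme of fatty acid oxidation. With sorafenib against control SRD5A1, a steroid reductase, rose by 0.44 (adjusted p = 0.0283), a call lost in 8 of 21 alternatives.

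Among 6 tested steroid and retinoid receptor genes 2 rose and 1 fell, with a median of 0.17. NR3C2, the mineralocorticoid receptor, rose by 0.68 (SE 0.11, adjusted p = 0.000991) and RXRA, a retinoid receptor, by 0.41 (adjusted p = 0.0117). PGR, the progesterone receptor, passed as lower (adjusted p = 0.013), but it was above background on 2 of 3 sorafenib and 0 of 3 combination arrays, so no size is given.

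AKR1C3 also acts on prostaglandins. Of 6 tested genes of prostaglandin synthesis, reduction and breakdown 2 rose and 1 fell, with a median of 0.37. PTGR2, a prostaglandin reductase, rose by 0.77 (SE 0.12, adjusted p = 0.000596), PLA2G4A, the phospholipase that releases arachidonic acid, by 0.98 (SE 0.26, adjusted p = 0.0145), and PTGES2, a prostaglandin E synthase, fell by 0.43 (SE 0.12, adjusted p = 0.0212). The PLA2G4A call was lost in 2 of 21 alternatives and the PTGES2 call in 5. PTGR2 also rose with the combination against givinostat, by 0.55 (SE 0.12, adjusted p = 0.0488), and was the only gene of these lists to pass there, outside the cell markers. Over all genes 0.750% rose and 0.446% fell with the combination against givinostat. That PTGR2 call lay just inside the threshold and was not run through the alternatives. Of 4 prostaglandin receptor genes counted with PPARG 2 rose and 1 fell, with a median of 0.23. PTGER4 rose by 0.77 (SE 0.09, adjusted p = 8.8e-05) and PTGER3 by 0.32 (adjusted p = 0.0207, lost in 5 of 21 alternatives). PTGIR fell at least 1.56-fold on background-corrected values (adjusted p = 0.00779). It was above background on 2 of 3 control, 1 of 3 givinostat, 3 of 3 sorafenib and 0 of 3 combination arrays. PTGIR thus passed the detection filter only through sorafenib, where it was highest, so its fall is not independent of that filter. Its log2 difference ran from -1.08 to -0.38 over the alternatives.

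Other families of carbonyl-metabolising enzymes moved in both directions. Of 12 tested carbonyl and short-chain reductases 3 rose and 4 fell, with a median of 0.03. CBR3 fell by 1.07 (SE 0.09, adjusted p = 1.17e-05), DHRSX fell by 1.28 (adjusted p = 1.19e-05) and the retinol dehydrogenase RDH10 fell by 0.86 (adjusted p = 0.000106), whereas DHRS2 rose by 0.93 (adjusted p = 0.000473). Of 11 aldehyde dehydrogenase genes 1 rose and 2 fell, with a median of -0.02. ALDH1A1, a retinal dehydrogenase, rose by 2.52 (SE 0.21, adjusted p = 9.86e-06), and it was above background on 1 of 3 control, 1 of 3 sorafenib, 3 of 3 givinostat and 3 of 3 combination arrays. Its mean sorafenib level of 6.03 lay near background, and the difference ran from 1.2 to 2.8 over the alternatives. ALDH1A1 passed the detection filter only through the givinostat and combination groups, so its rise is not independent of that filter. ALDH16A1 fell by 1.26 (adjusted p = 5.05e-05) and ALDH1L1, a folate enzyme, fell by 0.66 (adjusted p = 0.000784).

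The genes around aldose reductase and those that supply the family's cofactor included falls and no rise that passed. Of 9 tested polyol and hexose pathway genes 0 rose and 4 fell, with a median of -0.40: the fructose transporter gene SLC2A5 fell by 1.36 (SE 0.09, adjusted p = 1.48e-06), the glucose transporter gene SLC2A1 fell by 1.05 (adjusted p = 3.55e-05), XYLB, a xylulose kinase, fell by 0.63 (adjusted p = 0.00412) and GPI, a glycolytic isomerase, fell by 0.46 (adjusted p = 0.00639). Of 11 NADPH supply genes 0 rose and 4 fell, with a median of -0.30: IDH2 fell by 0.69 (SE 0.11, adjusted p = 0.000862), PGD as given above, NADK2 fell by 0.49 (adjusted p = 0.0117) and NADK fell by 0.52 (adjusted p = 0.0187), the last a call lost in 6 of 21 alternatives. With each array scaled to its median instead, XYLB gave -0.43 (adjusted p = 0.0602), NADK2 -0.32 (adjusted p = 0.0751) and NADK -0.39 (adjusted p = 0.141), and these 3 calls were lost. With sorafenib against control SLC2A5 rose by 0.38 (adjusted p = 0.0436), a call lost in 15 of 21 alternatives. In that comparison 0 genes passed limma's test in the lists of NADPH supply (5 with an unadjusted p under 0.05), carbonyl and short-chain reductases (5), aldehyde dehydrogenases (3), prostaglandin synthesis (2), prostaglandin receptors (1) and steroid receptors (0). For scale, 3350 of all 16927 detected probes had an unadjusted p under 0.05 there.

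The 5 genes most like AKR1C3 over the 12 arrays, by Pearson correlation of log2 levels among 10526 candidate genes, were COXFA4L3 (0.998), CDKN1A (0.994), SERTAD2 (0.990), SGSM1 (0.989) and ZNF467 (0.988). The arrays fall into those with and those without givinostat, so these values describe a shared split and carry no test. CDKN1A, the cyclin-dependent kinase inhibitor p21, averaged 11.11 in control, 13.02 with givinostat, 10.87 with sorafenib and 12.74 with the combination. COXFA4L3, a relative of a cytochrome oxidase subunit, averaged 8.21, 11.49, 7.97 and 11.15 in the same order. ZNF467, a zinc finger gene, was at background in control and sorafenib (0 of 3 arrays each) and above it on 3 of 3 arrays in both other groups. SERTAD2, a transcriptional coregulator, and SGSM1 were above background on all 12 arrays.

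**Figure D5:**
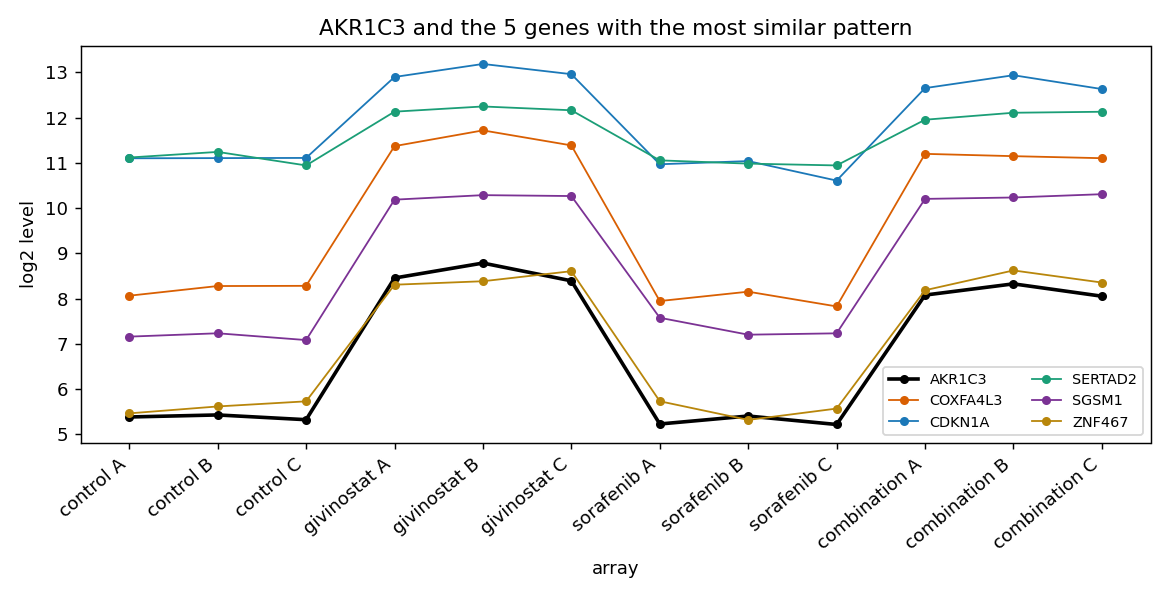
Normalized log2 level of AKR1C3 and the 5 genes with the highest correlation to it on each of the 12 arrays, ordered by group; lines join the values of 1 gene to guide the eye and mark no order of replicates. All 6 genes are higher on the 6 arrays with givinostat than on the 6 without it.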

How the data were processed

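RNA of HDLM-2 cells was measured on 12 arrays, 3 for each of 4 groups assigned from the treatment labels. Arrays were read with BeadStudio, per the submitters' processing notes, which give no version. The deposited table gives 1 intensity for each array and probe (48803 probes, 69.7 to 72773 units), averaged over beads and not background-subtracted. Per the file headers the authors' software also computed, before deposit, a detection p-value for each intensity, given as a fraction. These fractions rose with intensity (Spearman correlation at least 0.992), and the detection p was therefore taken as 1 minus the fraction. The authors' processed intensity values matched a quantile normalization of the same table (99th percentile of differences 0.217 units).

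Intensities were corrected by limma 3.58.1 (R 4.3.3; data.table release 1.17.8) with nec (normal-exponential, offset 16), normalized between arrays by quantiles, and log2 transformed. Probes entered when in at least 1 group all 3 arrays had a detection p under 0.05, and these 16927 were fitted over all 12 arrays with lmFit and eBayes (8 residual and 3.69 prior degrees of freedom). Tests were two-sided with Benjamini-Hochberg adjustment over these probes, called at 0.05. For gene lists the probe with the highest mean stood for a gene (10529 genes), with its adjusted p from the same fit. Where a probe was above background on 0 arrays of a group, the fold is against each array's lowest signal above background and is given as "at least". Log2 levels depend on the offset near background. The number of arrays limits the precision.

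The members and gene lists were chosen with earlier results of these data known. Members were named in every contrast. For each list up to 4 genes with the smallest p in combination against sorafenib and up to 2 in sorafenib against control could be named, with the 5 genes most correlated with AKR1C3 (Pearson, 1 probe a gene). Probe symbols came from the platform annotation, and promoters from RefSeq (GRCh38.p14), aligned globally with Biopython 1.88. No build is named in the files, so RefSeq served the array data for gene order only. The fit was tested on simulated data with independent noise at each probe's fitted spread. It recovered 88 of 100 changes of log2 size 1 and 100 of 100 of size 2, with 12 false calls. The simulation held no array effects and cannot speak to them. Alternatives were other filters, scaling, background handling, fits and the removal of each array. The letters A to C were not used to pair the arrays in the main fit.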

Additional observations from a re-analysis of the deposited data

How the results depend on the processing

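AKR1C3 and AKR1C4 probe 1 kept their direction and call in combination against sorafenib in every alternative that tested them (20 and 21). The count of 4 member probes called there was 2 with no detection filter, with probes detected on all 12 arrays (which leaves 2 members to test), with only the compared groups fitted, and with the array letter as a replicate block, and 2 to 3 without 1 array, so no single array could be removed without losing a call. The count of 1 in sorafenib against control was 0 with no detection filter, with detection on all 12 arrays, in the gene-level fit, with only the compared groups, with array weights and with the replicate block, and 0 to 1 without 1 array. The block changed no other member count. Same-letter arrays of different groups deviated together with correlations of -0.06 to 0.24, and arrays of different letters with -0.24 to 0.11. Of the 12 arrays 6 correlated best with their own letter, so whether the letters pair the arrays is not settled. In the other 2 contrasts the count stayed 0. Values near 0 changed sign: in sorafenib against control AKR7A2 was 0.02 with array weights and -0.07 to 0.03 without 1 array, AKR1C4 probe 1 was -0.05 to 0.02 without 1 array, and AKR7A3 was -0.10 with median scaling. In combination against givinostat AKR1C4 probe 1 was -0.12 to 0.22 and probe 2 -0.23 to 0.01 without 1 array, and the interaction of probe 1 was -0.11 to 0.23. SQSTM1 in combination against sorafenib was -0.13 with array weights and -0.33 to 0.40 without 1 array, the extremes without sorafenib C and A. The cause was not tested. Over all probes, sorafenib against control called 35 to 875, combination against givinostat 50 to 432 and the interaction 0 to 3. Median scaling moved the median change by 0.09 (combination against sorafenib) and -0.16 (sorafenib against control). The interaction could not be fitted with only the compared groups. Signals near background limit AKR1C1, AKR1C2 and AKR1C4 probe 2.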
